A study of Saccharomyces cerevisiae with 8 samples.

Results

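The genes described here build, divide and pass on the peroxisome. They are the rows of the deposited table whose name is *PEX* followed by a number, together with *INP1*, *INP2* and *ANT1*. The rule gave 32 genes, 29 *PEX* genes and 3 others, of the 5774 genes listed, and it used no measured value. All 32 names match the R64 reference annotation, each gene has 1 coding segment, and 0 overlap another annotated gene.

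Peroxisomes are organelles bounded by a single membrane. In *S. cerevisiae* they are the only site of fatty acid β-oxidation, and they also hold catalase and enzymes of the glyoxylate cycle. Peroxisomal membrane proteins are inserted by Pex3 and Pex19. Matrix proteins are made in the cytosol, are recognized there by the receptors Pex5 and Pex7, and pass the membrane at a docking complex. The receptors are then ubiquitinated by the RING ligases and pulled back to the cytosol by an ATPase machinery. Glucose keeps peroxisomes few and small, and growth on fatty acids makes them many and large.

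Poly-A RNA was sequenced from cultures of the prototrophic CEN.PK background, WT or with *PBP1* replaced by a hygromycin cassette (*pbp1Δ::Hyg*, *pbp1Δ* below). Pbp1 is the yeast ortholog of ataxin-2 and binds the poly(A)-binding protein. Cells were collected in log phase in YPD, a glucose medium, or washed and moved to YPL, a lactate medium that requires respiration, for 3 h. There were 4 groups of 2 libraries, labelled as biological replicates. The YPL cells had also been spun down, had grown 3 h longer and had less yeast extract, and these differences cannot be told apart from the carbon source.

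Values are normalized counts, each library's reads scaled by 1 number. A library held 33651287 to 39476235 reads, of which 42944 to 86829 belonged to the 32 genes. The lowest count of any of the 32 in any library was 160 reads. Replicates of the 32 genes differed by a log2 difference with an SD of 0.22 (WT, YPD), 0.15 (WT, YPL), 0.26 (*pbp1Δ*, YPD) and 0.20 (*pbp1Δ*, YPL). Over all 5759 genes tested the same SDs were 0.58, 0.22, 0.53 and 0.31.

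The deletion was visible in the reads of *PBP1* itself, which were 10926 and 12286 in WT cells in YPD and 12463 and 11204 in YPL. The *pbp1Δ* libraries held 0 and 0 reads in YPD and 0 and 1 in YPL. Genes that mark mating type also differed between the strains. The WT strain is listed as *MATa*, and no mating type is listed for *pbp1Δ*. The summed level of 7 **a**-specific genes was 71534 to 86076 normalized counts in WT cells in YPD and 14330 to 15821 in YPL, against 1574 to 2197 in the 4 *pbp1Δ* libraries. The 4 α-specific genes summed to 1680 to 2215 in WT and 41797 to 160790 in *pbp1Δ* libraries. Effects of the deletion and of mating type therefore cannot be told apart in any comparison of the strains. In YPD, 12 stress-induced genes summed to 209688 and 192598 normalized counts in the WT and *pbp1Δ* libraries of replicate 1 and to 29388 and 24511 in those of replicate 2. In YPL they summed to 268260 to 378750.

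Letters near the genes were searched because peroxisomal genes are known targets of the Oaf1-Pip2 transcription factor, which binds the oleate response element. The letters searched were CGGNNNTNA, then 8 to 12 bases of any kind, then CCG, on both strands of the 500 bases before the start codon. A match was found for 7 of the 32 genes, compared with 124 of 5768 genes (2.15%). The 7 matches are shown from the R64 reference genome, with the fixed letters in capitals. They begin and end 100 to 175 bases before the start codon, and none matched on both strands.
*PEX11*: CGGcatTtAtctcggagaacCCG
*PEX5*: CGGagtTaAtcgcgatgatCCG
*PEX13*: CGGaaaTaAaaaaaatttggcCCG
*PEX6*: CGGcgaTaAtcgtcaacacttCCG
*PEX17*: CGGgtgTaAcaataataCCG
*PEX2*: CGGaagTtAgtatcgatCCG
*ANT1*: CGGattTaAaactcgatCCG
The *PEX11* match lies at chrXV:48756-48778, that of *PEX5* at chrIV:950388-950409, that of *PEX13* at chrXII:537116-537139, that of *PEX6* at chrXIV:22754-22777 and that of *PEX17* at chrXIV:245498-245517, all read on the minus strand. Those of *PEX2* at chrX:36751-36770 and *ANT1* at chrXVI:792355-792374 are read on the plus strand.

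The series was made to study Pbp1 with Puf3, an RNA-binding protein that recognizes an element after the coding sequence of its target mRNAs. The letters TGTANATA were found on the coding strand within 200 bases of the stop codon for 7 of the 32 genes (*PEX4*, *PEX6*, *PEX13*, *PEX17*, *PEX25*, *PEX27* and *PEX35*). The share of all genes searched was 14.48%, or 835 of 5768. The matches of all 7 are shown, since their values are given with the strain comparison, and have the element in capitals with its neighbouring bases.
*PEX4*: ttgacacattTGTATATAcatatacata
*PEX6*: taggtaaattTGTAAATAtatgtcccat
*PEX13*: tctaaagtaaTGTAAATAttccagggag
*PEX17*: tctattctaaTGTACATAtatatgttcc
*PEX25*: catatagataTGTACATAtatatgtggc
*PEX27*: ttatagtactTGTATATAtacatttttt
*PEX35*: tttacaagttTGTAAATAatctatatta
On R64, the capitals lie on the plus strand at chrVII:757588-757595 for *PEX4*, chrXII:538489-538496 for *PEX13*, chrXIV:246395-246402 for *PEX17* and chrXV:711642-711649 for *PEX27*. They lie on the minus strand at chrXIV:19502-19509 for *PEX6*, chrXVI:337400-337407 for *PEX25* and chrVII:833311-833318 for *PEX35*. They begin 29 (*PEX25*) to 179 (*PEX17*) bases after the stop codon. Of the 7 genes, *PEX27* alone had a C among the bases at 1 and 2 before the element.

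To assess how the genes responded to the change of medium, YPL was first compared with YPD in WT cells. Transcripts of the import co-receptors *PEX18* and *PEX21* and of the division gene *PEX11* showed the largest increases, by 3.22-fold, 6.04-fold and 4.77-fold. Another 8 genes of the receptor cycle, docking and the endoplasmic reticulum rose by 1.6-fold to 1.81-fold. A gene was called when its adjusted p was under 0.05 and its log2 fold change was over 0.58 in either direction. In all, 11 of the 32 genes were called higher and 0 lower. Over all genes tested, 19.3% were called higher and 15.7% lower. The median log2 fold change was 0.479 over the 32 genes and -0.001 over all genes.

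The 2 YPL libraries lay above the 2 YPD libraries for 28 genes and below them for 2. Of all genes, 38.5% were apart and higher and 38.0% apart and lower. With adjusted p alone, 19 of the 32 genes were higher and 0 lower, beside 24.3% and 22.6% of all genes. The genes called included *PEX4*, *PEX5*, *PEX10*, *PEX11*, *PEX13*, *PEX14*, *PEX15*, *PEX18*, *PEX21* and *PEX30*. At the fold threshold, *PEX30* was just inside (0.68) and *ANT1* just outside (0.54). Without WT YPL replicate 2, a single YPL library remained and only *PEX5*, *PEX11*, *PEX18* and *PEX21*, 4 genes, were called. The lone library is then assumed to vary like the other groups. For this fit, and for the others with a single library left out, the share of all genes called was not counted.

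In *pbp1Δ* cells, the same change of medium gave 9 genes higher and 0 lower. Of all genes, 18.1% were called higher and 15.1% lower. The median was 0.447 over the 32 genes and 0.011 over all genes. The YPL libraries lay above the YPD libraries for 23 genes and below them for 2, beside 37.6% and 35.9% of all genes. With adjusted p alone, 18 were higher and 1 (*PEX31*) was lower, beside 23.9% and 22.0% of all genes. The genes called included *PEX4*, *PEX11*, *PEX13*, *PEX14*, *PEX15*, *PEX18*, *PEX21* and *PEX30*, of which *PEX13* lay just inside the fold threshold (0.66) and *PEX10* was just outside (0.55). Without *pbp1Δ* YPL replicate 2, 6 genes were called, and *PEX13*, *PEX14* and *PEX15* were not.

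The WT and *pbp1Δ* changes of medium share no library. The fit takes the spread of a gene from all 8 libraries for both, so their calls are not independent. The 9 genes called in *pbp1Δ* cells were also called in WT, and 2 (*PEX5* and *PEX10*) were called in WT alone. Of all genes called higher, 84.0% of those in *pbp1Δ* were also called higher in WT, and 79.1% of those in WT also in *pbp1Δ*. The log2 fold changes had the same sign for 29 of the 32 genes and for 88.0% of all genes. The same-numbered YPD libraries of the strains deviated together (Pearson correlation 0.85 across genes, which are not independent replicates). Neither *PEX5* nor *PEX10* was called in the test of the difference between the changes (adjusted p = 0.787 and 0.996). Since stress-induced genes separated the YPD replicates, the counts were repeated without both YPD libraries of a number, a choice made after seeing the data. Without those of replicate 1, 14 genes were called higher in WT and 13 in *pbp1Δ*, beside 24.1% and 23.1% of all genes. Without those of replicate 2, they were 12 and 11, beside 20% and 19.5%. Because the RNA came from whole cultures, more cells that express a gene and more mRNA per cell cannot be told apart. Normalized counts are relative to the other transcripts of a culture, so a change in total mRNA would not be seen.

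**Figure D1:**
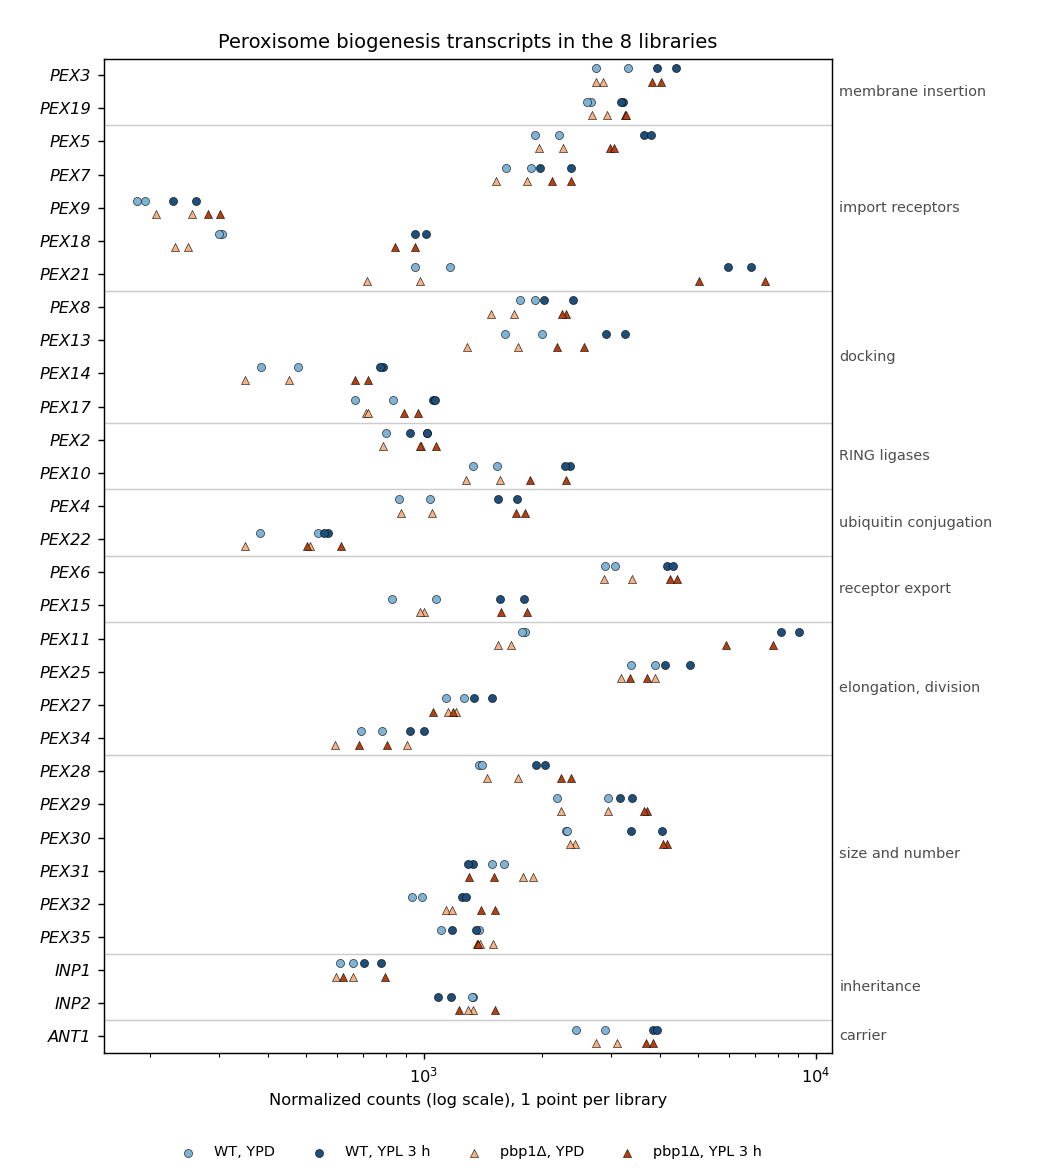
Normalized counts of 30 of the 32 genes on a log axis, grouped by role, with 1 point for each of the 8 libraries (circles, WT; triangles, *pbp1Δ*; pale, YPD; dark, YPL 3 h). Dark points of *PEX11*, *PEX18* and *PEX21* stand well to the right of the pale ones in both strains. *PEX9*, at 186 to 302, has the lowest counts except in *pbp1Δ* YPD replicate 2, where *PEX18* is lower.

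**Figure D2:**
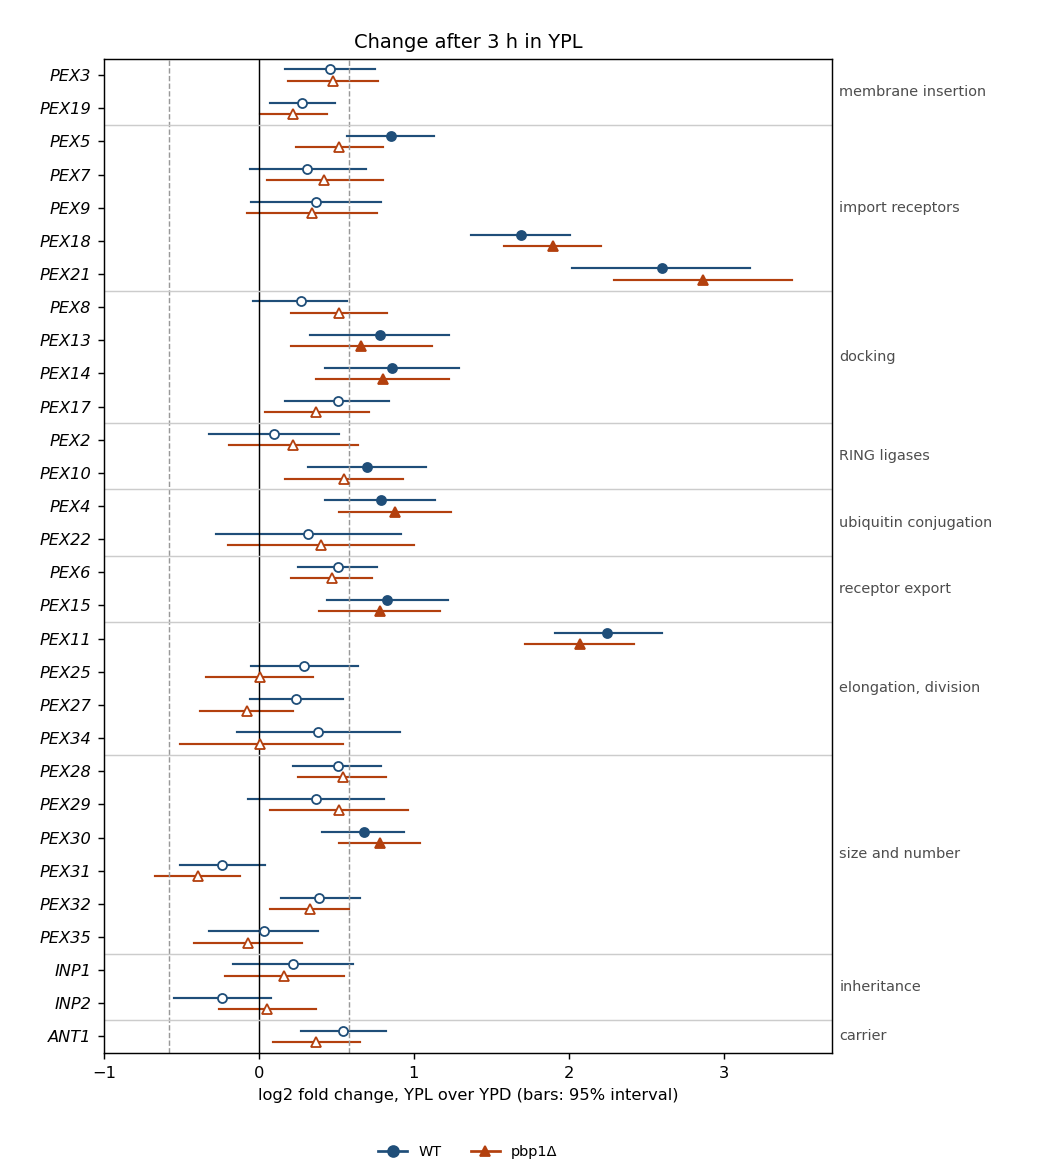
Fitted log2 fold change of YPL over YPD for 30 of the 32 genes in WT (circles) and *pbp1Δ* cells (triangles), with 95% intervals as bars, filled markers for called genes and dashed lines at the fold threshold of 0.58 in either direction. Filled markers stand at 10 genes in WT and 8 in *pbp1Δ*, all to the right of 0.

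*PEX3* and *PEX19* insert membrane proteins, Pex19 as the soluble receptor for newly made membrane proteins and Pex3 as its docking site. Neither was called. The log2 fold change was 0.46 in WT and 0.48 in *pbp1Δ* for *PEX3* (adjusted p = 0.0212 and 0.0183) and 0.28 and 0.22 for *PEX19* (adjusted p = 0.0405 and 0.0805).

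Among the import receptors, *PEX5* encodes the receptor for matrix proteins with the C-terminal targeting signal PTS1. *PEX5* measured 1920.5 and 2209 normalized counts in WT cells in YPD and 3647 and 3800.3 in YPL. In *pbp1Δ* cells it measured 1963 and 2272 in YPD and 2991 and 3049 in YPL. Every YPL library lay above every YPD library, and the *pbp1Δ* YPL libraries lay below those of WT. The log2 fold change was 0.85 in WT (SE 0.12, adjusted p = 0.00147) and 0.52 in *pbp1Δ* (SE 0.12, adjusted p = 0.0123), the second under the fold threshold.

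*PEX7* encodes the receptor for the N-terminal signal PTS2, which the β-oxidation thiolase carries. Its counts were 1877 and 1622 in YPD and 1985 and 2374 in YPL in WT, and 1837 and 1525 in YPD and 2120.3 and 2379 in YPL in *pbp1Δ* cells. The groups did not overlap, but the replicates of each were far apart, and neither log2 fold change, 0.31 and 0.42, was called (adjusted p = 0.143 and 0.0633).

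Pex7 needs a co-receptor, either Pex18 or Pex21, encoded by YHR160C at chrVIII:419221-420072 and YGR239C at chrVII:969187-970053 of R64, both on the minus strand. *PEX21* rose from 951 and 1170.4 normalized counts in YPD to 5969.9 and 6818 in YPL in WT, and from 715 and 979 to 5029.8 and 7401 in *pbp1Δ* cells. *PEX18* rose from 307 and 300.4 to 1014 and 949 in WT and from 249.8 and 232 to 952 and 846 in *pbp1Δ* cells. Both co-receptor genes were thus apart between the media in each strain. The log2 fold change was 2.60 for *PEX21* in WT (SE 0.24, adjusted p = 0.000282) and 2.87 in *pbp1Δ* (SE 0.24, adjusted p = 0.000219). For *PEX18* it was 1.69 in WT (SE 0.13, adjusted p = 0.000159) and 1.90 in *pbp1Δ* (SE 0.13, adjusted p = 0.000123). *PEX9*, an import receptor for a subset of PTS1 proteins including malate synthase, had the lowest mean count of the list in each group. It was not called (0.37 and 0.34, adjusted p = 0.132 and 0.16).

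Of the 4 docking and translocation genes, 2 were called in each strain. *PEX13* encodes a membrane protein of the docking complex with an SH3 domain. It measured 1610.4 and 2006 normalized counts in YPD and 2913 and 3269 in YPL in WT. In *pbp1Δ* cells it measured 1289 and 1735 in YPD and 2192 and 2566 in YPL. The media did not overlap in either strain, with log2 fold changes of 0.78 (SE 0.19, adjusted p = 0.0153) and 0.66 (SE 0.19, adjusted p = 0.0279). The call in *pbp1Δ* was lost under 8 of 19 settings and in WT under 3, among them leaving out either WT YPL library.

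*PEX14* encodes the docking protein that binds the loaded receptor. It rose from 385 and 479 to 788 and 772 normalized counts in WT and from 350.2 and 452 to 667 and 722 in *pbp1Δ* cells, log2 fold changes of 0.86 and 0.80 (adjusted p = 0.00872 and 0.0119). Leaving out WT YPL replicate 1 also removed the call in WT, and leaving out *pbp1Δ* YPD replicate 1 that in *pbp1Δ*. *PEX17*, the third docking component, measured 834 and 669 in YPD and 1055 and 1068 in YPL in WT, and 713 and 722 in YPD and 969 and 893 in YPL in *pbp1Δ* cells. Its YPL libraries were all above its YPD libraries, but at log2 fold changes of 0.51 and 0.37 it was not called (adjusted p = 0.0249 and 0.0681). *PEX8*, which acts inside the organelle and links docking to the RING complex, was not called either (0.27 and 0.52, adjusted p = 0.133 and 0.0163).

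Pex2 and Pex10 belong to the RING complex, which attaches ubiquitin to the receptors. *PEX10* measured 1535 and 1335 normalized counts in YPD and 2357 and 2289.6 in YPL in WT, and 1564 and 1282 in YPD and 1864 and 2303 in YPL in *pbp1Δ* cells. It was called in WT (0.70, SE 0.16, adjusted p = 0.0116), where it lost the call without either YPL library, without WT YPD replicate 2 and after median centring. The value in *pbp1Δ* was 0.55. *PEX2* had log2 fold changes of 0.10 and 0.22 (adjusted p = 0.669 and 0.331), without a call.

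*PEX4* encodes the ubiquitin-conjugating enzyme that marks the receptors for recycling, and Pex22 anchors it to the membrane. *PEX4* rose from 1040.3 and 866 normalized counts to 1550.4 and 1731 in WT and from 874 and 1050.2 to 1718 and 1818 in *pbp1Δ* cells. All 4 YPL libraries lay above all 4 YPD libraries, with log2 fold changes of 0.79 and 0.88 (adjusted p = 0.00587 and 0.00387). *PEX22* gave 0.32 and 0.40 with the widest intervals of the list in these comparisons, from -0.28 to 0.92 and from -0.20 to 1.00.

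Pex6 is an AAA ATPase of receptor export, and Pex15 holds it at the membrane. *PEX15* measured 1074 and 832 normalized counts in YPD and 1566 and 1808 in YPL in WT, and 1000.4 and 977 in YPD and 1571 and 1835 in YPL in *pbp1Δ* cells. It rose in both strains with no overlap of the media, at log2 fold changes of 0.83 and 0.78 (adjusted p = 0.00678 and 0.0092). *PEX6* was not called, at 0.51 and 0.47 (adjusted p = 0.00911 and 0.0127).

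Among the genes of elongation and division, *PEX11* encodes an abundant membrane protein that bends and elongates the membrane before fission (YOL147C, coding sequence at chrXV:47933-48643 of R64, minus strand). Its transcripts rose from 1817 and 1784 normalized counts to 9058 and 8152 in WT and from 1548 and 1669 to 7761 and 5899.6 in *pbp1Δ* cells. The 2 *pbp1Δ* YPL libraries lay below the 2 of WT. The log2 fold change was 2.25 in WT (SE 0.14, adjusted p = 9.86e-05) and 2.07 in *pbp1Δ* (SE 0.14, adjusted p = 0.000123).

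*PEX25* and *PEX27* belong to the same protein family as *PEX11*. *PEX25* measured 3373 and 3894 normalized counts in YPD and 4788 and 4129 in YPL in WT, and 3191 and 3881 in YPD and 3722 and 3367 in YPL in *pbp1Δ* cells. *PEX27* measured 1264 and 1137 in YPD and 1497 and 1342 in YPL in WT, and 1210.1 and 1152 in YPD and 1187 and 1056 in YPL in *pbp1Δ* cells. Their media did not overlap in WT and overlapped in *pbp1Δ* cells. The log2 fold change of *PEX25* was 0.29 in WT and 0.01 in *pbp1Δ*, and that of *PEX27* 0.24 and -0.08, none of them called (adjusted p = 0.14 to 0.967). *PEX34*, which acts with the family to set peroxisome number, gave 0.38 and 0.01 (adjusted p = 0.197 and 0.965).

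Genes of peroxisome size and number include the *PEX30* family, whose products sit in the endoplasmic reticulum. *PEX30*, whose product shapes membranes where peroxisomes arise, rose from 2304 and 2326 normalized counts to 3383 and 4043 in WT and from 2429 and 2368 to 4183 and 4067 in *pbp1Δ* cells, by log2 fold changes of 0.68 and 0.78 (adjusted p = 0.00294 and 0.00176). *PEX31* measured 1498 and 1607 in YPD and 1336 and 1298 in YPL in WT, and 1793 and 1903 in YPD and 1307 and 1510.2 in YPL in *pbp1Δ* cells. It ran the other way, below its YPD libraries in both strains, at -0.24 (adjusted p = 0.138) and -0.39 (adjusted p = 0.0304), and was under the fold threshold. *PEX32* measured 990.4 and 936 in YPD and 1250.0 and 1279.8 in YPL in WT, and 1139.8 and 1184 in YPD and 1397 and 1521 in YPL in *pbp1Δ* cells, 0.39 and 0.33 higher but not called (adjusted p = 0.0226 and 0.0431).

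*PEX28* and *PEX29* are a further related pair of this group. *PEX28* measured 1385 and 1409.6 normalized counts in YPD and 1937 and 2034 in YPL in WT, and 1741 and 1450.0 in YPD and 2239 and 2372 in YPL in *pbp1Δ* cells. *PEX29* measured 2955 and 2184 in YPD and 3172 and 3395 in YPL in WT, and 2946 and 2242 in YPD and 3706 and 3639.9 in YPL in *pbp1Δ* cells. Both were apart between media in each strain and neither was called, at 0.51 and 0.54 for *PEX28* (adjusted p = 0.0138 and 0.0114) and 0.37 and 0.52 for *PEX29* (adjusted p = 0.148 and 0.06). *PEX35*, a membrane protein that sets peroxisome abundance, gave 0.03 and -0.07 (adjusted p = 0.872 and 0.716).

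For inheritance, Inp1 keeps peroxisomes in the mother cell and Inp2 links them to the myosin that carries them into the bud. *INP1* measured 662 and 611 normalized counts in YPD and 779 and 704 in YPL in WT, and 659 and 599 in YPD and 798 and 621 in YPL in *pbp1Δ* cells. *INP2* measured 1333 and 1328 in YPD and 1173 and 1086 in YPL in WT, and 1338 and 1299.9 in YPD and 1520.0 and 1232 in YPL in *pbp1Δ* cells. Neither was called, with log2 fold changes of 0.22 and 0.16 for *INP1* (adjusted p = 0.306 and 0.441) and -0.24 and 0.05 for *INP2* (adjusted p = 0.184 and 0.768). *ANT1*, the carrier that brings ATP into the organelle for fatty acid activation, gave 0.54 and 0.37 (adjusted p = 0.00943 and 0.0409).

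Ratios of related genes were then compared between the media. The log2 ratio of each pair was taken within a library and compared between the 4 YPL and 4 YPD libraries, both strains together, for 9 pairs. Pairs among *PEX11*, *PEX25* and *PEX27* share genes, as do those among *PEX30*, *PEX31* and *PEX32*. The 9 tests are therefore not independent, and the adjusted p depends on which pairs were entered. The two-sided exact permutation test gave p = 0.0286, the smallest that 4 against 4 allows, for 7 pairs (Benjamini-Hochberg adjusted p = 0.0367), in which the media did not overlap, nor in either strain taken alone. This test exchanges libraries across the strains. Exchanged within strains only, a choice made after seeing the data, the smallest possible p is 0.0556, so 0 pairs passed (exact permutation p = 0.0556 and adjusted p = 0.0714 for the same 7). The replicates of a strain count here as separate values of a medium, and no pair can pass without any 1 of the libraries, since 4 against 3 cannot go below 0.0571.

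*PEX11* moved from 0.477 to 1.92 times *PEX25* (log2 ratio -1.07 ± 0.14 in YPD and 0.94 ± 0.11 in YPL, SD, n = 4) and from 1.43 to 6.05 times *PEX27*. *PEX25* relative to *PEX27* differed by 0.07 between media (exact permutation p = 0.429), with ratios of 3.00 and 3.15. *PEX18* fell from 0.288 to 0.151 of *PEX21* (-1.79 ± 0.27 and -2.73 ± 0.32, SD, n = 4), although both rose. *PEX30* moved from 1.39 to 2.87 times *PEX31* and from 2.23 to 2.87 times *PEX32*, and *PEX31* went from 1.6 times *PEX32* to a ratio of 1.00. *INP1* was 0.479 of *INP2* in YPD and 0.656 in YPL in WT, but 0.477 and 0.515 in *pbp1Δ* cells, log2 differences of 0.46 and 0.11. *PEX28* stayed below *PEX29* in both media, at 0.583 and 0.616 (exact permutation p = 0.657).

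**Figure D3:**
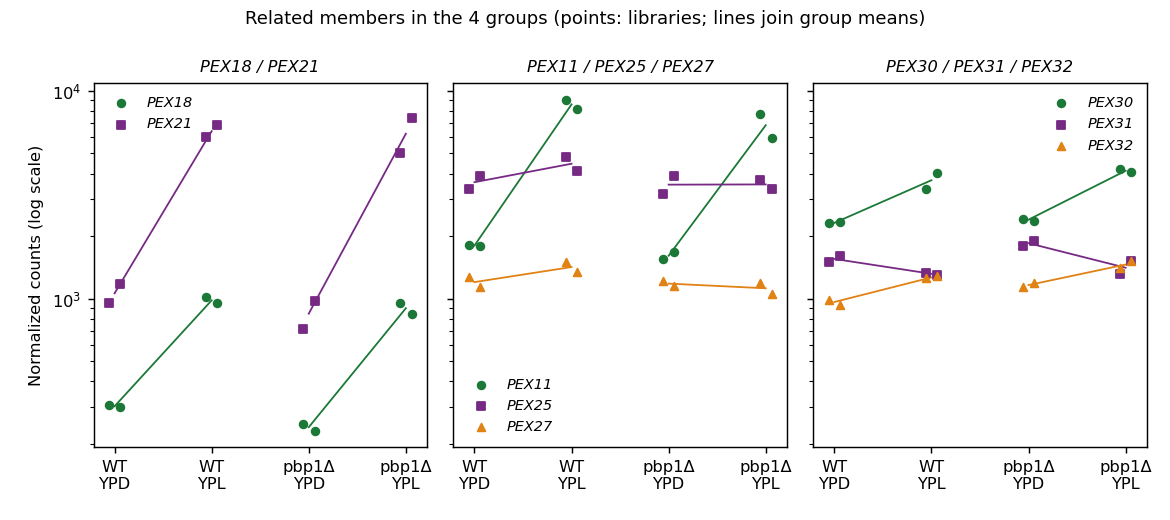
Normalized counts of 3 sets of related genes on a log axis in the 4 groups, with points for libraries and lines that join the group means of a strain. *PEX11* crosses above *PEX25* in YPL in both strains, and *PEX21* stays above *PEX18* while both rise. *PEX31* and *PEX32* come to similar levels, *PEX31* from above and *PEX32* from below.

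Per kilobase of coding sequence, the order of the levels was led in YPD by *PEX25*, *ANT1*, *PEX19*, *PEX11* and *PEX3* in WT, with 3066, 2710, 2565, 2532 and 2288 normalized counts per kb. In YPL, *PEX11* led with 12100 and *PEX21* followed with 7375, ahead of *ANT1* (3938), *PEX25* (3762) and *PEX3* (3143). *PEX9* was last in both media, with 123 and 160 normalized counts per kb, below *PEX18* in YPD (356) and *INP2* in YPL (533). *PEX11* and *PEX21* also led in *pbp1Δ* cells in YPL, with 9607 and 7169, and *PEX25* led there in YPD with 2984. Of the 31 neighbouring pairs in such an order, the libraries of 7 were apart in WT in YPD, 11 in WT in YPL, 9 in *pbp1Δ* in YPD and 12 in *pbp1Δ* in YPL. The libraries of the other neighbours overlapped. Together the 32 genes took 0.126% to 0.135% of all normalized counts in YPD and 0.209% to 0.233% in YPL.

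For the genes with the letters of the oleate response element, the median change in WT was 0.54 on the log2 scale, with 3 of 7 called, and for the 25 without them it was 0.38, with 8 called. In *pbp1Δ* cells the medians were 0.47 and 0.42, with 2 and 7 called. Among the 7 were *PEX11* (2.25 in WT) and *PEX2* (0.10), and *PEX18* and *PEX21* had no match in this window.

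The enzymes that peroxisomes import were compared as lists chosen alongside these genes. All 11 genes of β-oxidation and its transport were called higher in YPL in WT (median log2 fold change 2.68) and all 11 in *pbp1Δ* (2.71), led in WT by the acyl-CoA oxidase *POX1*, at 403 and 320 normalized counts in YPD and 18421 and 18052 in YPL (5.66, adjusted p = 1.5e-05), and the thiolase *POT1* (4.52, adjusted p = 1.6e-05). Of 13 other matrix enzymes, 7 were called higher and 1 lower in WT (median 0.82), and 6 higher and 0 lower in *pbp1Δ* (1.04). The malate synthase *MLS1* (7.02) and the catalase *CTA1* (3.61) were among them.

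Of 8 regulators of oleate-induced genes, 3 were called higher in WT and 4 in *pbp1Δ*. In WT these were the activators *ADR1* (3.75), *CAT8* (3.10) and *PIP2* (0.63), and the list's median was 0.35 in WT and 0.54 in *pbp1Δ*. Of 7 genes of fission and movement, 3 rose in WT, *DNM1*, the dynamin of organelle fission (1.72), *FIS1*, its membrane anchor (1.51), and the adaptor *MDV1* (0.80). In *pbp1Δ* cells 2 were called higher and 2 lower, with list medians of -0.01 and -0.16. Of the 7 pexophagy genes tested, those of the selective breakdown of peroxisomes, 4 were called higher in each strain (medians 0.72 and 0.79), with the receptor *ATG36* at 2.69 in WT.

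Among 12 glucose-repressed genes, 11 were called higher in WT and 12 in *pbp1Δ* (medians 5.36 and 5.10), with the lactate permease *JEN1* at 7.67 in WT. Of the 12 stress-induced genes, 6 were called higher and 0 lower in each strain (medians 1.77 and 2.05). Their part in the changes of the 32 genes was not tested. Of the 7 **a**-specific genes 6 were called lower in YPL in WT (median -2.12), and 0 in *pbp1Δ* (0.17). Of the 4 α-specific genes 1 was called lower in WT (median 0.25) and 3 in *pbp1Δ* (-2.61). The 1 in WT was *MF(ALPHA)1*, at 52.2 and 75.8 normalized counts in YPD and 21.4 and 3.0 in YPL. Its value in WT YPL replicate 2 is that of 3 reads.

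The strains were next compared in each medium, the question for which the series was made. In YPD, 0 of the 32 genes were called in *pbp1Δ* against WT, beside 0.972% of all genes. In this limma fit, 2 had an unadjusted p under 0.05, beside 8.2% of all genes. These were *PEX32*, 0.27 higher on the log2 scale, and *PEX18*, -0.33, with adjusted p = 0.533 and 0.548. The log2 fold changes ran from -0.33 to 0.28 with a median of -0.014, and the 95% intervals of the 32 genes lay between -0.91 and 0.70. The main fit has no replicate block, so deviations shared by same-numbered YPD libraries count as spread in these intervals and p-values. The *pbp1Δ* libraries lay above those of WT for 7 genes and below for 3, beside 13.7% and 17.8% of all genes.

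In YPL, 0 of the 32 genes were called, beside 4.69% of all genes. Again 2 had an unadjusted p under 0.05 in the limma fit, beside 17.8% of all genes. *PEX5* measured 0.30 lower in the sense *pbp1Δ* over WT (-0.30, 95% interval -0.58 to -0.02, adjusted p = 0.246) and *PEX27* likewise (-0.34, -0.64 to -0.04, adjusted p = 0.222). The log2 fold changes ran from -0.38 (*PEX13*) to 0.28 (*INP2*) with a median of -0.002, and the intervals lay between -0.90 and 0.67. The *pbp1Δ* libraries lay above those of WT for 8 genes and below for 8, beside 27.5% and 30.1% of all genes.

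By role, the 4 genes of elongation and division gave similar values in YPL, -0.34 (*PEX11*), -0.33 (*PEX25*), -0.34 (*PEX27*) and -0.37 (*PEX34*), with none called (adjusted p = 0.222 to 0.446). The 6 genes of size and number ran from 0.09 to 0.22. In YPD the same groups ran from -0.16 to 0.00 and from 0.02 to 0.27. The 7 genes with the letters of the Puf3 element lay on both sides of 0 in YPL, with -0.38 for *PEX13*, -0.34 for *PEX27*, -0.33 for *PEX25*, -0.19 for *PEX17*, 0.03 for *PEX6*, 0.11 for *PEX4* and 0.12 for *PEX35*. Their median was -0.19, and that of the 25 others was 0.01. The 7 genes with the letters of the oleate response element had the same median, -0.19, and the 25 without them 0.02. The sets share *PEX6*, *PEX13* and *PEX17*, and the value of *PEX17* is the median of both, so the medians are not separate results. No gene of either set was called. In YPD the medians with and without the letters were -0.02 and -0.01 for the Puf3 element and -0.04 and -0.01 for the oleate response element.

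**Figure D4:**
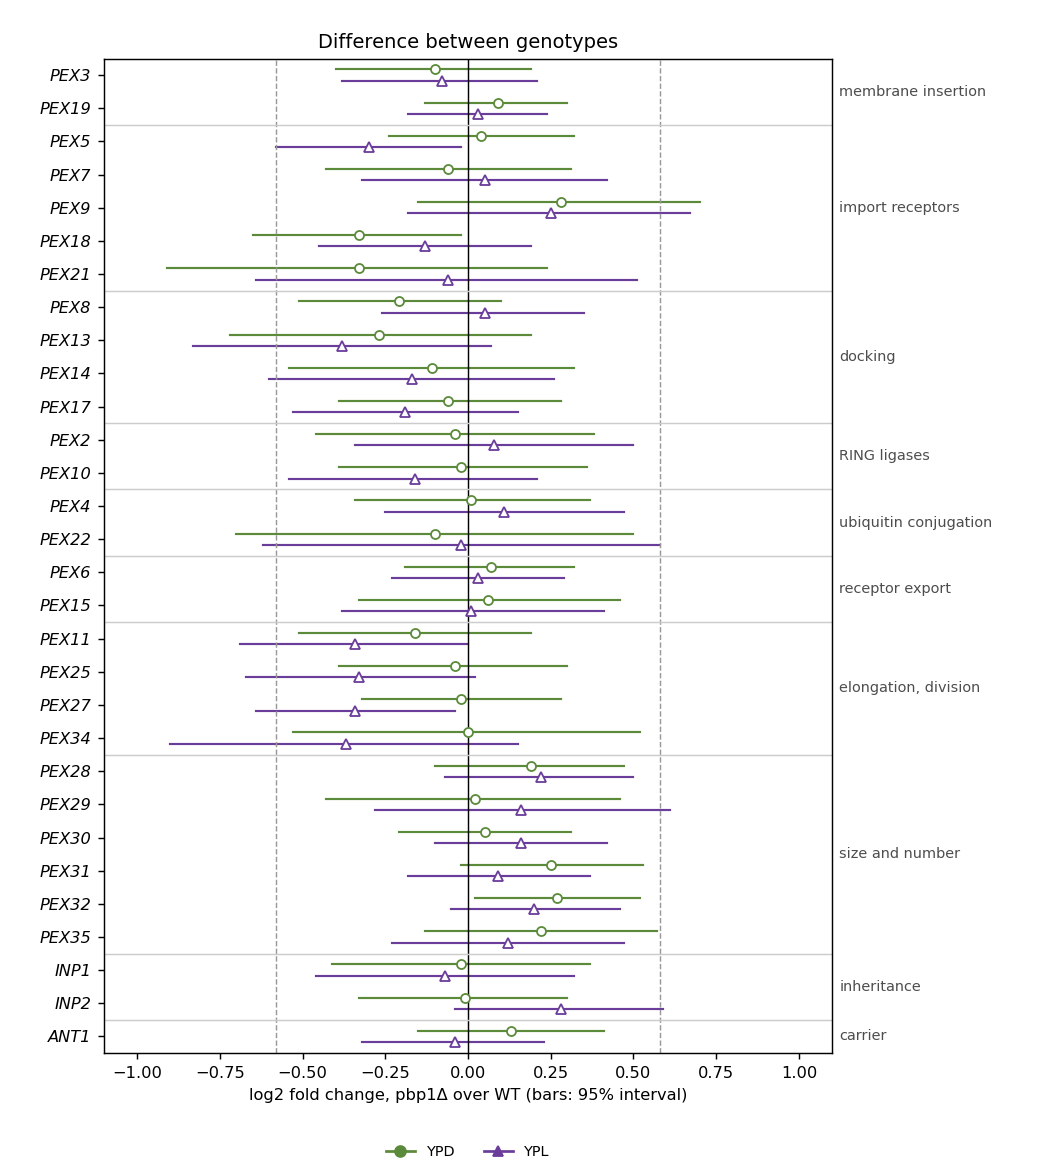
Fitted log2 fold change of *pbp1Δ* over WT for 30 of the 32 genes in YPD (circles) and YPL (triangles), with 95% intervals as bars and dashed lines at 0.58 in either direction. All markers are open, since 0 genes were called, and they lie between -0.38 and 0.28.

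The change of medium did not differ between the strains for any of the 32 genes at the threshold. In the limma test of the interaction 0 were called, beside 0.0695% of all genes, and 0 had an unadjusted p under 0.05, beside 7.02%. The differences, *pbp1Δ* minus WT, ran from -0.37 (*PEX34*) to 0.29 (*INP2*). Their 95% intervals reached from -1.11 to 1.08, and the smallest adjusted p was 0.787 (*PEX5*). In the other lists, 0 genes of β-oxidation, the other matrix enzymes, regulators, fission and movement, pexophagy, glucose repression or stress were called between strains in either medium. Of the mating-type genes, 6 of the 7 **a**-specific genes were called lower in *pbp1Δ* in each medium, by log2 fold changes of -8.17 (*MFA1*) to -4.02 (*STE6*) in YPD. The α-specific genes called higher were 4 in YPD, from 4.90 (*SAG1*) to 10.32 (*MF(ALPHA)1*), and 3 in YPL.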

How the data were processed

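Paired-end reads of the 8 libraries were trimmed, aligned to the S288C genome with STAR 2.7.3a, filtered for unique mapping and counted per gene with featureCounts of Subread 1.6.3 on R64 by the authors, who tested them with DESeq2. Whether counting used the strand is not given in the sources used here. The authors deposited normalized counts, a linear signal each library's reads scaled by 1 number, and 0 sample columns of the table were left unused. The value of 1 read was recovered from the steps between values (tolerance 0.01 reads) and used for read totals, the reads of *PBP1* and the lowest read count. In each library, 100% of the values then lay within 0.01 reads of a whole number. Low values were too few for a check on those alone. A floor of 3 reads, which is 2.67 to 3.48 normalized counts, was noted for each library. The fit replaced no value by it.

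Genes with a mean of at least 10 (5759 genes, all 32 genes described among them) were fitted as log2(value + 1) by 1 linear model of all 8 libraries in 4 groups (limma 3.58.1 under R 4.3.3), with moderation with a trend in the mean. Fold changes are on this scale. P-values were adjusted over all genes tested (Benjamini-Hochberg). A call needed an adjusted p under 0.05 and, except for the interaction, a log2 fold change over 0.58 in either direction. The labels say only that replicates are biological, so that p-values measure the spread between these libraries. Pair ratios, motifs and plots used Python 3.11.15, pandas 2.3.3, numpy 2.4.6, scipy 1.17.1 and matplotlib 3.10.9. The fit was also run on simulated counts that were independent between libraries. These lack the deviations that same-numbered YPD libraries share, so they do not test the fit under such deviations.

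The genes, lists and tests were chosen with earlier results of these data known. By the rule for named genes, values per library are given for 20 genes (those called, the related pairs, and the PTS receptors and docking genes) and log2 fold changes for another 10. The remaining 2 of the 32 genes enter the counts and medians and are not reported here. From other lists, values are given for genes called between strains and for some of the 5 largest called changes in WT. ATG37, listed for pexophagy, was not analysed here. Alternatives were other pseudocounts, filters, scaling, moderation and fold thresholds, a replicate block, fits of the groups compared, and each library left out.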

Additional observations from a re-analysis of the deposited data

How the results depend on the processing

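At the same fold threshold, *PEX5*, *PEX11*, *PEX18* and *PEX21* were called in WT under all 19 alternatives, and genes including *PEX4*, *PEX11*, *PEX18*, *PEX21* and *PEX30* in *pbp1Δ*. With libraries left out, 4 to 14 genes were called in WT, 6 to 13 in *pbp1Δ* and 0 in each strain comparison and the interaction. A fold threshold of 1 gave 3 genes in each strain and no fold threshold gave 19 in each. Pseudocounts of 0.5 and 10, no filter, a mean of at least 100 and no trend each gave 11 and 9. Only the groups compared gave 11 and 8. Shares of all genes were counted for the main fit, for adjusted p alone and without both YPD libraries of a number. For the other alternatives they were not counted, so a lower count need not be particular to these genes.

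Centring each library on its median moved the median of all genes by -0.13 in both medium comparisons and by 0.07 and 0.06 between strains in YPD and YPL. It gave 8 genes called in each strain. The medians of the 32 genes became 0.353 in WT, 0.312 in *pbp1Δ*, and 0.056 and 0.060 between strains in YPD and YPL. The sign turned for *PEX2* (-0.026) and *PEX35* (-0.093) in WT and for *INP2* (-0.082), *PEX25* (-0.126) and *PEX34* (-0.121) in *pbp1Δ*, none of them called.

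With libraries left out, the medians ran from 0.401 to 0.525 in WT, 0.415 to 0.504 in *pbp1Δ*, -0.096 to 0.045 between strains in YPD, -0.078 to 0.032 in YPL and -0.124 to 0.038 for the interaction. Uncalled log2 fold changes ran across 0 for *PEX2* (-0.074 to 0.274) and *PEX35* (-0.130 to 0.196) in WT and for *INP1* (-0.016 to 0.344), *INP2* (-0.099 to 0.204), *PEX25* (-0.132 to 0.150), *PEX27* (-0.161 to 0.008) and *PEX34* (-0.291 to 0.319) in *pbp1Δ*, as did the *PEX28*/*PEX29* ratio (-0.026 to 0.129). The number of pairs past the threshold, 7 of 9, was 0 to 0, because 4 against 3 cannot reach it, and 0 with libraries exchanged only within strains, because that test cannot either. The causes were not tested, apart from the smaller number of libraries.

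The labels do not say what a replicate number marks. Deviations of same-numbered libraries correlated at 0.85 between the strains in YPD and 0.24 in YPL, and between -0.22 and 0.01 across media. Fits with a replicate block, over both media or for each medium apart, called 11, 9, 0, 0 and 0 genes, as did the fit without it, and the block changed no call of the 32 genes. The 2 count models planned on recovered reads were not run. Each library has only 58 to 80 values of up to 20 reads, which were held too few for a check on low values. Over all values, 100% in each library were whole reads within 0.01. The paper also describes a supplement of raw read counts, which was not used here. With 2 libraries a group, uncalled differences are known only to within the intervals given.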
